A study of Mus musculus with 3 samples.

Results

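Natural killer (NK) cells with abundant transcripts of Gzma, which encodes the granule protease granzyme A, were examined in single-cell transcriptomes of mouse spleen. A barcode counted as such a cell when it carried at least 1 UMI (unique molecular identifier, a tag that marks 1 captured transcript) of Ncr1 or Klre1, at least 3 UMIs of Gzma and 0 UMIs of Cd3d, Cd3e, Cd3g, Cd79a and Cd79b. Ncr1 encodes the NK receptor NKp46, Klre1 encodes a lectin-like NK receptor, the Cd3 genes encode the signalling chains of the T cell receptor, and the Cd79 genes encode those of the B cell receptor. Of 32509 cells with at least 500 UMIs, at least 200 genes and under 10% mitochondrial UMIs, 2284 met these conditions. Because measured values of those 8 genes chose the cells, the levels of these genes are given as a description only.

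NK cells are innate lymphocytes that kill infected or transformed cells by releasing perforin and granzymes and that secrete interferon-gamma and chemokines. In the mouse they mature from CD27+ cells to CD11b+ KLRG1+ cells under the transcription factors T-bet, Eomes and ZEB2, and they leave the bone marrow and lymphoid tissue with the help of sphingosine-1-phosphate receptors. Receptors for self MHC class I, in the mouse the Ly49 family, set the threshold of their activation, and interleukin-15 supports their survival.

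The spleens came from wild-type (WT) mice in 3 groups. The control group was not irradiated. The IR group was irradiated at 8.5 Gy and given a control substance that the labels call colvent control, and the IR_HSO group (IR+HSO in the labels) was irradiated at the same dose and given HSO, hemp seed oil according to the series title. Strain, age, sex, the interval between irradiation and collection, the HSO dose and the number of mice behind each library are not given in the sources used here. Each group is 1 droplet library, without replicates, and no p-value is given. Intervals are 95% intervals that cover counting error only, and a difference between libraries cannot be told apart from a difference between conditions.

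The libraries held 47298108 UMIs in control, 50836313 in IR and 45636807 in IR_HSO, over 9070, 12854 and 10585 cells that passed the quality limits. Members had a median of 3876, 2825 and 3489 UMIs and of 1847, 1434 and 1618 genes per cell, in that order. Between 34 and 54 barcodes were shared by each pair of libraries, and 1 barcode of a member in IR_HSO was also that of a member in IR. The makeup of the members' RNA differed between libraries in several ways that recur below. The 18S ribosomal RNA feature Rn18s-rs5 took 3.22% of control, 1.54% of IR and 5.31% of IR_HSO UMIs, and ribosomal protein genes took 14.4%, 17.2% and 19.2%. Mitochondrial genes took 1.58%, 2.04% and 2.60%. Immunoglobulin genes took 0.0690%, 0.337% and 0.336%, and pancreatic acinar genes 0.000571%, 0.137% and 0.148%. Haemoglobin genes took 0.731% in control, of which 6309 UMIs lay in 1 cell, and 5.11e-05% and 3.17e-05% in the irradiated libraries. The part of these differences in the results was not tested.

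Gzma-high NK cells made up a larger share of the cells in both irradiated libraries than in the control library. Before the limits on T and B cell genes, 365, 2207 and 1283 cells of control, IR and IR_HSO met the conditions on Ncr1 or Klre1 and on Gzma, of which 70, 916 and 459 were dropped for a Cd3 UMI and a further 78, 26 and 22 for a Cd79 UMI. The control library held 217 of them among 9070 cells, or 2.39% (95% Clopper-Pearson interval 2.09 to 2.73). The IR library held 1265 among 12854, or 9.84% (9.33 to 10.4), and the IR_HSO library 802 among 10585, or 7.58% (7.08 to 8.10). The share was 4.11-fold that of control in IR (95% interval 3.56 to 4.77) and 3.17-fold in IR_HSO (2.72 to 3.70), and the IR_HSO share was 0.770 of the IR share (0.704 to 0.842). A share depends on all other cells in the library: a gate for B cells held 3501 control, 114 IR and 58 IR_HSO cells, and a gate for T cells held 2279, 6243 and 5770. More NK cells and fewer other cells cannot be told apart from shares. With the same conditions but no limit on Gzma, the NK gate held 263, 1738 and 1192 cells, of which Gzma-high cells were 82.5%, 72.8% and 67.3%.

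Within the cells so chosen, the irradiated libraries held a larger share of cells at the low end of Gzma. The median Gzma count per cell was 45 UMIs in control, 36 in IR and 36 in IR_HSO, with maxima of 139, 280 and 414. Cells with 3 to 9 Gzma UMIs were 4.61% of control, 21.0% of IR and 15.3% of IR_HSO members, and cells with 30 to 99 were 71.4%, 50.7% and 51.1%. At the threshold itself, 4, 58 and 17 members had exactly 3 Gzma UMIs, and 1, 97 and 40 cells just outside it had exactly 2. Membership rested on a single UMI of Ncr1 and Klre1 together in 4, 146 and 119 members. Gzma UMIs were also more common after irradiation in cells of other types: at least 1 Gzma UMI was found in 5.0%, 46.7% and 27.3% of T gate cells and in 3.97%, 46.5% and 27.6% of B gate cells. Median depths were 5191, 3355 and 3366.5 UMIs in the T gate and 3672, 3528 and 5138 UMIs in the B gate. Immunoglobulin genes took 3.55%, 54.1% and 43.1% of B gate UMIs, which lowers the share left for other genes there and in later B gate values. With a limit of 30 Gzma UMIs in place of 3, the shares of all cells were 1.79%, 5.51% and 4.42%. The ratio of IR to control was then 3.08 rather than 4.11. Raw Gzma counts depend on depth: members with 3 to 9 Gzma UMIs had a median of 2111, 1153.5 and 2345 UMIs. With a limit of 0.1% of a cell's UMIs instead, the shares were 2.41%, 10.5% and 7.61%. Among cells thinned to 2000 UMIs they were 2.81%, 10.8% and 8.57%.

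**Figure D1:**
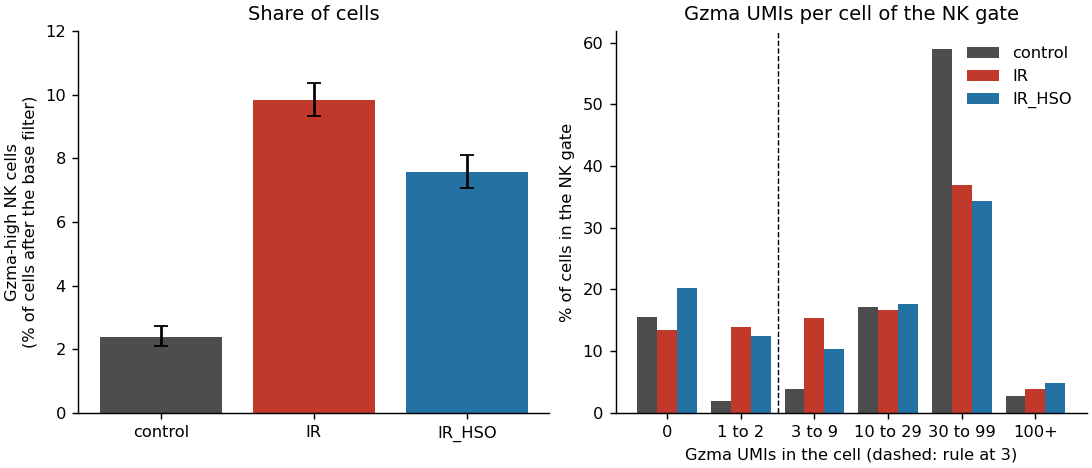
Left, Gzma-high NK cells as a percentage of the cells that passed the quality limits in each library, with 95% Clopper-Pearson intervals; right, NK gate cells by class of Gzma UMIs as a percentage of the gate, with the dashed line at the limit of 3. The share is lowest in control at 2.39% and highest in IR at 9.84%. The irradiated libraries hold larger shares of the gate in the classes of 1 to 2 and 3 to 9 Gzma UMIs. In the class with 0 Gzma UMIs, IR lies below control and IR_HSO above it.

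The label of mature NK cells was checked against genes that the rule did not use, and NK genes were high while T and B cell genes were low. Nkg7, a granule membrane protein, stood at 3536 CPM in control, 3803 CPM in IR and 2573 CPM in IR_HSO. Prf1, which encodes the pore-forming protein perforin, stood at 1245 CPM in control, 1175 CPM in IR and 980.5 CPM in IR_HSO, and Klrd1, which encodes CD94, the partner of NKG2 receptors, at 1334 CPM in control, 1150.3 CPM in IR and 784 CPM in IR_HSO. In T gate cells Prf1 stood at 44.8, 38.7 and 28.2 CPM. CPM is a gene's share of all UMIs of a library's summed member cells, scaled to counts per 1000000. Itgam, which encodes the maturation marker CD11b, stood at 286, 159 and 108 CPM, against 34.4, 26.5 and 5.61 CPM in NK gate cells under the Gzma limit. Cd27, the marker of the immature stage, was still present, with 156 CPM in control, 93.9 CPM in IR and 73.3 CPM in IR_HSO. In those cells under the limit it stood at 103, 126 and 77.9 CPM. The cells under the limit numbered 46, 473 and 390 and were of mixed makeup. Listed B cell genes summed to 15400, 3122 and 2318 CPM in them and erythroid genes to 15966, 6.62 and 3.11 CPM. Acinar genes ran the other way, at 4.92, 20875 and 23732 CPM. Of 13 listed T cell genes other than those in the rule, the summed level was 718 CPM in control, 920 in IR and 815 in IR_HSO, against 5918, 5239 and 4399 CPM in the T gate, with Cd5 and Foxp3 at 0 in control. Listed B cell genes summed to 702, 897 and 1043 CPM, with Pax5 at 0 in IR and IR_HSO.

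A gene was set beside others when it reached 20 CPM in at least 1 of the 2 libraries compared, and it was counted as higher or lower when its levels differed by at least 1.5-fold. Between IR and control 6627 genes reached the floor, of which 549 (8.28%) were higher and 455 (6.87%) lower in IR. Between IR_HSO and IR 225 of 6523 (3.45%) were higher and 307 (4.71%) lower in IR_HSO. Between IR_HSO and control 725 of 6687 (10.8%) were higher and 853 (12.8%) lower in IR_HSO. The median log2 ratio over all these genes, with 1 CPM added to both levels, was −0.03, −0.07 and −0.11. The split between higher and lower depended on the scaling: of all calls, 54.7%, 42.3% and 45.9% were in the higher direction, against 65.5%, 54.3% and 60.4% with median-of-ratios scaling and 60.1%, 68.5% and 67.6% when Gzma, immunoglobulin, acinar, mitochondrial, ribosomal and rRNA genes were left out of the totals. These scalings put the median over all genes at 0.03, −0.02 and 5.02e-05, and at 0.01, 0.06 and 0.06. The 3 comparisons share libraries, so they are not independent of each other. The shares of all genes counted as higher or lower are the reference for every count of list genes below.

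Genes of terminal NK maturation were lower in IR than in control and, in part, lower again in IR_HSO. Of 16 listed genes, all at the floor, 9 were lower and 1 higher in IR against control, with a median log2 ratio of −0.64. Against IR, 5 of 15 were lower and 0 higher in IR_HSO, with a median of −0.35. Against control, 11 of 16 were lower and 1 higher in IR_HSO, with a median of −0.91. These shares of lower genes stand beside 6.87%, 4.71% and 12.8% of all genes, and the medians beside those of −0.03, −0.07 and −0.11. Lower levels were not limited to maturation genes. A list of NK identity, which holds Nkg7, Prf1, Klrd1 and also Tbx21, had medians of −0.22, −0.44 and −0.68. Of its 12 genes at the floor, 1, 0 and 7 were lower and 0, 0 and 1 higher.

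Zeb2, the transcription factor of the last maturation step, stood at 1012 CPM in control, 557 CPM in IR and 308 CPM in IR_HSO. Its levels stepped down over the 3 libraries, and IR_HSO was 1.81-fold (95% interval 1.68 to 1.95) below IR and 3.29-fold (95% interval 2.997 to 3.604) below control. Cma1, a chymase found in mature mouse NK cells, stood at 275 CPM in control, 148 CPM in IR and 72.7 CPM in IR_HSO, and S1pr5, the sphingosine-1-phosphate receptor with which mature NK cells leave tissue, at 287 CPM in control, 149.9 CPM in IR and 94.3 CPM in IR_HSO. Cma1 was 2.03-fold (95% interval 1.74 to 2.38) lower in IR_HSO than in IR, and S1pr5 was 1.91-fold (95% interval 1.64 to 2.22) lower in IR than in control. Both genes therefore followed the same order as Zeb2. Klrg1, an inhibitory receptor that marks the terminal stage, stood at 102 CPM in control, 54.1 CPM in IR and 36.8 CPM in IR_HSO, 1.88-fold (95% interval 1.45 to 2.42) lower in IR than in control.

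Itgam, Klf2 and Tbx21 had the same order of libraries. Itgam, which encodes CD11b, stood at 286 CPM in control, 159 CPM in IR and 108 CPM in IR_HSO. Klf2, a transcription factor of quiescence and of S1P receptor expression, stood at 1360.2 CPM in control, 858 CPM in IR and 498 CPM in IR_HSO, and Tbx21, which encodes T-bet, at 269.5 CPM in control, 175 CPM in IR and 142 CPM in IR_HSO. Cx3cr1, the fractalkine receptor, was the one lower gene with its lowest level in IR: 43.4 CPM in control, 16.8 CPM in IR and 19.7 CPM in IR_HSO, counts that gave a 2.58-fold (95% interval 1.68 to 3.896) difference between control and IR. Prdm1, which encodes the repressor Blimp-1, lay within 1.5-fold in all comparisons at 67.4 CPM in control, 52.3 CPM in IR and 62.5 CPM in IR_HSO, as did Irf8 at 421 CPM in control, 442 CPM in IR and 512 CPM in IR_HSO. S100a6 and Ly6c2, which rise with maturation, had 403, 568 and 594 CPM and 312, 394 and 347 CPM in control, IR and IR_HSO, so not every gene tied to maturation was lower.

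The same order of libraries was seen in shares of cells brought to an equal depth of 1000 UMIs, for which 214, 1146 and 766 members were deep enough and 3, 119 and 36 were left out. Zeb2 was detected in 59.8% of members in control, 41.4% in IR and 28.9% in IR_HSO, against 0.838%, 1.06% and 1.23% of T gate cells, and without thinning in 88.5%, 65.5% and 56.6%. S1pr5 was detected in 28.97%, 14.5% and 10.8% of members and Cma1 in 24.3%, 14.2% and 8.49%. A higher limit on Gzma left the order of levels in place: among the 162, 708 and 468 cells with at least 30 Gzma UMIs, Zeb2 stood at 1089, 588 and 338 CPM and Cma1 at 335, 179 and 94.7 CPM. Thus the lower levels were present also in the cells with most Gzma. In NK gate cells under the Gzma limit, Zeb2 stood at 344, 168 and 89.1 CPM, from 46, 473 and 390 cells of the mixed makeup given above.

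**Figure D2:**
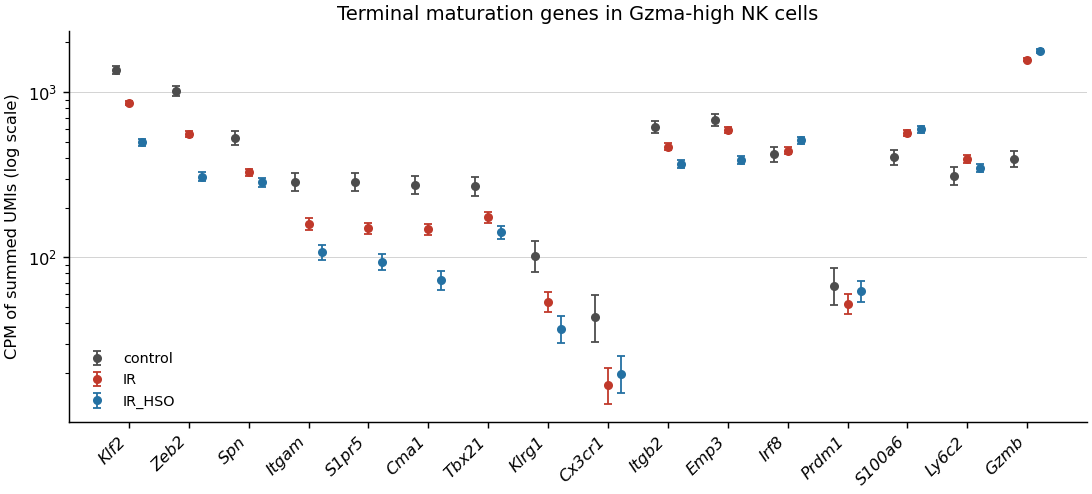
Levels of the 16 terminal maturation genes in Gzma-high NK cells of each library in CPM on a log axis, with 95% Poisson intervals. Zeb2, Cma1, S1pr5, Klrg1, Itgam and Klf2 step down from control through IR to IR_HSO, Gzmb is higher in both irradiated libraries, and Prdm1 and Irf8 lie close together.

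Among transcription factors, Eomes, which specifies NK cells together with T-bet, stood at 429 CPM in control, 320.1 CPM in IR and 222 CPM in IR_HSO. Of 19 listed factors at the floor, 1 was higher (Nfil3) and 4 lower (Bach2, Zeb2, Klf2 and Tbx21) in IR against control. In IR_HSO against IR, 0 were higher and 2 lower (Zeb2 and Klf2). In IR_HSO against control, 3 were higher (Nfkbia, Maf and Ikzf2) and 4 lower (Zeb2, Klf2, Eomes and Tbx21). Over all genes 8.28%, 3.45% and 10.8% were higher and 6.87%, 4.71% and 12.8% lower. Zeb2, Klf2 and Tbx21 are on the maturation list too. The levels of Nfil3, an early NK lineage factor, were 28.6 CPM in control, 43.4 CPM in IR and 34.6 CPM in IR_HSO. Genes of the immature stage and of type 1 innate lymphoid cells were spread to both sides: 3 of 13 at the floor were higher (Inpp4b, Il7r and Xcl1) and 2 lower (Cd27 and Cd7) in IR against control, with a median log2 ratio of 0.04. In IR_HSO against IR, 2 were higher (Il7r and Kit) and 0 lower, with a median of 0.30. The medians of maturation genes in NK gate cells under the Gzma limit were 0.22, −0.59 and −0.20 in the 3 comparisons, against −0.64, −0.35 and −0.91 in Gzma-high cells, and the difference between the 2 classes was not tested.

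Several trafficking genes were lower in the irradiated libraries, among them receptors and integrins that guide exit and adhesion. Of 18 listed genes at the floor, 6 were lower and 0 higher in IR against control (median log2 ratio −0.36). In IR_HSO, 3 of 17 were lower and 0 higher against IR (−0.38), and 10 of 18 were lower and 0 higher against control (−0.67). Over all genes 6.87%, 4.71% and 12.8% were lower in the 3 comparisons. Lists share genes: Cx3cr1, S1pr5 and Klf2, lower in IR, were also counted among the maturation genes. The same holds for Klf2 and S1pr5 in IR_HSO against IR, and for these genes, Cx3cr1 and Itgb2 in IR_HSO against control. S1pr1, the receptor that draws lymphocytes toward blood and lymph, stood at 86.8 CPM in control, 31.9 CPM in IR and 22.2 CPM in IR_HSO, and was 2.72-fold (95% interval 2.02 to 3.65) lower in IR and 3.91-fold (95% interval 2.79 to 5.48) lower in IR_HSO than in control. Itgb1 and Itgb7, integrin beta chains, stood at 718, 439.9 and 353 CPM and 229.6, 144 and 99.03 CPM. Cd69, which holds lymphocytes in tissue by opposing S1PR1, did not follow this order, with 139 CPM in control, 154 CPM in IR and 103 CPM in IR_HSO. With Klf2 and S1pr5, Cd69 made up the 3 genes lower in IR_HSO against IR. Under the 2 other scalings, 2 and 1 of 18 were lower in that comparison. The chemokine receptor gene Ccr2 stood at 394, 535 and 379.6 CPM, within 1.5-fold between IR and control.

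Ly49 receptor genes, of which each NK cell transcribes only a subset, were on balance lower in IR_HSO. These paralogues are near-identical in sequence, so the division of reads among them is uncertain. Of 8 at the floor between IR and control, 2 were higher (Klra6 and Klra1) and 1 lower (Klra5) in IR, with a median log2 ratio of −0.30. In IR_HSO against IR, 4 of 7 were lower and 0 higher (−0.59), and against control 5 of 7 were lower and 0 higher (−0.81). Over all genes 6.87%, 4.71% and 12.8% were lower in the 3 comparisons, and 8.28% were higher in IR against control. Under each of the 2 other scalings, 2 of 7 were lower in IR_HSO against IR, with medians of −0.54 and −0.47. The NK identity list, which also holds Klra4 and Klra8, had a median of −0.44 in that comparison. Klra4 and Klra8, the genes of the activating receptors Ly49D and Ly49H, stood at 1223 CPM in control, 1008 CPM in IR and 696 CPM in IR_HSO and at 874 CPM in control, 699 CPM in IR and 519.9 CPM in IR_HSO. Klra9, which encodes Ly49I, stood at 606 CPM in control, 466 CPM in IR and 283 CPM in IR_HSO, and Klra3, which encodes Ly49C, at 339 CPM in control, 253 CPM in IR and 168 CPM in IR_HSO. Klra9 was 1.64-fold (95% interval 1.52 to 1.78) lower and Klra3 1.51-fold (95% interval 1.36 to 1.68) lower in IR_HSO than in IR. These 4 genes ran from control down to IR_HSO, and so did Klra5, at 37.7, 13.5 and 5.71 CPM.

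Other members of the family had another order. Klra7, which encodes Ly49G, stood at 312 CPM in control, 445 CPM in IR and 287 CPM in IR_HSO, and Klra1, which encodes Ly49A, at 65.1 CPM in control, 118 CPM in IR and 88.2 CPM in IR_HSO. Both were highest in IR, where Klra1 was 1.82-fold (95% interval 1.38 to 2.43) the control level. At equal depth Klra7 was detected in 15.9%, 25.6% and 17.2% of members and Klra8 in 42.99%, 37.96% and 28.5%. The number of different Ly49 genes seen per cell also differed. Members with no UMI of any of the 13 listed Ly49 genes were 16.8% in control (95% interval 12.1 to 22.5), 16.0% in IR (13.9 to 18.2) and 29.8% in IR_HSO (26.5 to 33.1), while members with 3 or more were 23.4%, 22.8% and 11.6%. Without thinning, members with none were 5.07%, 9.33% and 13.5%. In T gate cells at equal depth, 98.6%, 92.7% and 95.8% had none. In NK gate cells under the Gzma limit 74.3%, 70.4% and 73.8% had none, of 35, 335 and 347 cells.

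**Figure D3:**
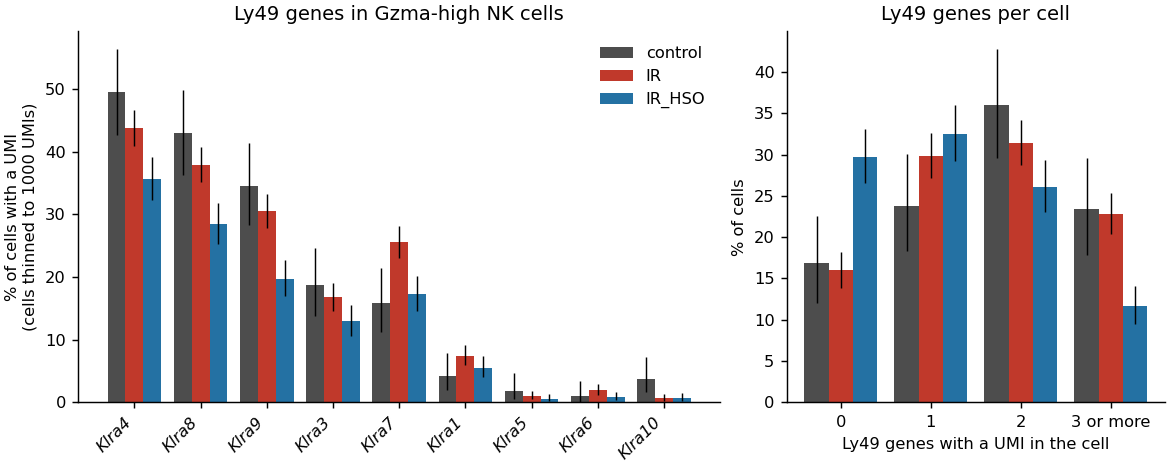
Left, percentage of Gzma-high NK cells with at least 1 UMI of each Ly49 gene after thinning to 1000 UMIs per cell, with 95% Clopper-Pearson intervals; right, percentage of cells by the number of Ly49 genes detected per cell. IR_HSO has the largest share of cells with none, 29.8%, and the smallest with 3 or more, 11.6%.

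Most genes of other activating receptors lay within 1.5-fold, while more of the few measured inhibitory receptor genes did not. Of 18 activating receptors and adaptors at the floor, 2 were higher (Slamf6 and Crtam) and 1 lower (Fcgr3) in IR against control. Between IR_HSO and IR, 0 differed by 1.5-fold. In IR_HSO against control 1 was higher (Slamf6) and 3 lower (Fcgr3, Tyrobp and Fcer1g). Over all genes 8.28% were higher and 6.87% lower in IR than in control, so the counts for IR lie near the general share. In IR_HSO against control 10.8% of all genes were higher and 12.8% lower. Fcgr3, the Fc receptor CD16 of antibody-dependent killing, stood at 63.96 CPM in control, 26.6 CPM in IR and 30.2 CPM in IR_HSO, and its adaptor gene Fcer1g at 2588 CPM in control, 2316 CPM in IR and 1694 CPM in IR_HSO. Tyrobp, which encodes the adaptor DAP12 of activating Ly49 receptors, stood at 3127 CPM in control, 2687 CPM in IR and 1849.5 CPM in IR_HSO. Both adaptor genes were over 1.5-fold lower in IR_HSO than in control. Klrk1, which encodes the activating receptor NKG2D, stood at 1484, 1343 and 1081 CPM, and Klrc1, which encodes the inhibitory receptor NKG2A, at 254, 249 and 237 CPM. Of 5 inhibitory receptor genes at the floor, 1 was higher (Lilrb4a) and 2 lower (Klrg1 and Cd96) in IR against control, 1 was higher (Lilrb4a) and 0 lower in IR_HSO against IR, and 1 was higher (Lilrb4a) and 2 lower (Klrg1 and Klrd1) in IR_HSO against control. Lilrb4a had 2.28 CPM in control, 25.3 CPM in IR and 52.7 CPM in IR_HSO, from 2, 99 and 166 UMIs, a 23.1-fold (95% interval 6.29 to 192) ratio of IR_HSO to control.

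Among granule genes, Gzmb was higher after irradiation while Prf1, given above, lay within 1.5-fold in all comparisons. Gzmb, which encodes granzyme B, stood at 394 CPM in control, 1569.8 CPM in IR and 1773 CPM in IR_HSO, 3.98-fold (95% interval 3.57 to 4.45) higher in IR and 4.499-fold (95% interval 4.03 to 5.03) higher in IR_HSO than in control. At equal depth it was detected in 30.4% of members in control (24.3 to 37.0), 68.4% in IR (65.6 to 71.1) and 68.9% in IR_HSO (65.5 to 72.2), against 0.0882%, 7.64% and 6.19% of T gate cells. Without thinning the shares were 61.3%, 87.0% and 88.2%. Gzmb levels went up with Gzma class in each library, from 83.0 CPM in cells with 3 to 9 Gzma UMIs to 517 CPM in cells with 100 or more in control, from 973 to 1899 CPM in IR and from 611 to 2206 CPM in IR_HSO. Even the lowest class of each irradiated library exceeded the highest class of control.

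Of 17 granule genes at the floor, 3 were higher (Gzmb, Serpinb9b and Serpinb9) and 1 lower (Ctsc) in IR against control. The median log2 ratio was 0.21, and over all genes 8.28% were higher and 6.87% lower. Serpinb9, an inhibitor that protects the killer cell from its own granzyme B, stood at 376 CPM in control, 625 CPM in IR and 665 CPM in IR_HSO, and was 1.66-fold (95% interval 1.48 to 1.87) higher in IR than in control. Ctsc, the protease that activates granzymes, stood at 139 CPM in control, 92.2 CPM in IR and 83.2 CPM in IR_HSO. Rab27a, which docks lytic granules at the membrane, was the 1 granule gene higher in IR_HSO than in IR, with 42.3 CPM in control, 57.95 CPM in IR and 99.7 CPM in IR_HSO, a 1.72-fold (95% interval 1.45 to 2.05) ratio. The list's median of −0.05 in IR_HSO against IR changed sign when Gzma, immunoglobulin, acinar, mitochondrial, ribosomal and rRNA genes were left out of the totals (0.07). Gzma itself, chosen by the rule, stood at 11588, 13163 and 11388 CPM.

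Most effector cytokine and chemokine genes lay within 1.5-fold of control in IR, and the death ligand gene Fasl had the largest ratio. Fasl stood at 111 CPM in control, 207 CPM in IR and 197 CPM in IR_HSO, 1.86-fold (95% interval 1.51 to 2.33) higher in IR than in control. Xcl1, the chemokine gene for cross-presenting dendritic cells, stood at 306 CPM in control, 466 CPM in IR and 315 CPM in IR_HSO, 1.52-fold (95% interval 1.34 to 1.74) higher in IR. These were the 2 of 8 genes at the floor that were higher in IR, beside 8.28% of all genes, and 0 were lower. Ifng stood at 135, 139.6 and 103 CPM and Ccl5, the most abundant chemokine transcript here, at 13453, 11846 and 12669 CPM, within 1.5-fold in all comparisons.

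Cytokine receptor genes and their feedback inhibitors were higher after irradiation in a subset that includes Il7r and the SOCS genes. Of 26 listed genes at the floor, 6 were higher and 2 lower in IR against control (median log2 ratio 0.18), and 11 were higher and 2 lower in IR_HSO against control (0.37). In IR_HSO against IR, 4 of 28 were higher and 1 lower (0.18). Over all genes 8.28%, 10.8% and 3.45% were higher in these comparisons, in the order given. Il7r, which encodes the interleukin-7 receptor alpha chain of naive T cells and innate lymphoid cells, stood at 14.8 CPM in control, 132 CPM in IR and 269 CPM in IR_HSO, from 13, 517 and 847 UMIs. It was 8.89-fold (95% interval 5.15 to 16.8) higher in IR than in control and 2.04-fold (95% interval 1.82 to 2.28) higher in IR_HSO than in IR.

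Il7r levels depended on where in the Gzma range a cell lay. In cells with 3 to 9 Gzma UMIs Il7r stood at 41.5 CPM in control, 249 CPM in IR and 750 CPM in IR_HSO, and in cells with 30 to 99 at 3.16, 99.6 and 197 CPM. In the few cells with 100 or more Gzma UMIs it stood at 0, 59.2 and 46.5 CPM, so there IR was above IR_HSO. NK gate cells under the Gzma limit had 369, 986 and 1360 CPM, and T gate cells 542, 794 and 1100 CPM. At equal depth Il7r was detected in 1.40%, 8.03% and 12.9% of members, against 34.8%, 46.6% and 59.5% of T gate cells and 0.830%, 0% and 5.26% of B gate cells. Without thinning it was detected in 3.23%, 14.9% and 28.4% of members.

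The SOCS genes and Cish, which encode inhibitors induced by cytokine signalling, were all higher in both irradiated libraries. Socs1 stood at 27.4 CPM in control, 96.2 CPM in IR and 87.9 CPM in IR_HSO, 3.51-fold (95% interval 2.32 to 5.55) higher in IR than in control, and Socs3 at 11.4 CPM in control, 50.8 CPM in IR and 49.5 CPM in IR_HSO, 4.45-fold (95% interval 2.37 to 9.42) higher. Cish stood at 17.1 CPM in control, 55.9 CPM in IR and 77.4 CPM in IR_HSO and Socs2 at 9.14 CPM in control, 29.9 CPM in IR and 50.8 CPM in IR_HSO. Socs2 was also 1.7-fold (95% interval 1.33 to 2.18) higher in IR_HSO than in IR, whereas Socs3 was at nearly the same level in both. Of the receptor chains for interleukin-2 and interleukin-15, Il2ra and Il2rb were highest in IR_HSO and Il15ra, at 12.6, 22.2 and 13.97 CPM, in IR. Il2ra, which encodes the high-affinity interleukin-2 receptor chain, had 0, 36 and 64 UMIs, at least 5.93-fold higher in IR_HSO than the limit of 3 UMIs that 0 counts allow in control, and 2.21-fold (95% interval 1.45 to 3.42) higher in IR_HSO than in IR. Il2rb, which encodes the receptor chain shared by interleukin-2 and interleukin-15, stood at 865 CPM in control, 1166 CPM in IR and 1389 CPM in IR_HSO. Signal transducers were mixed, with Jak3, a kinase of these receptors, at 22.8, 21.2 and 38.1 CPM. Jak1, its partner, ran the other way with 1281 CPM in control, 813 CPM in IR and 736 CPM in IR_HSO, and so did Stat4, the transducer of interleukin-12 signals, with 393 CPM in control, 264 CPM in IR and 230.1 CPM in IR_HSO.

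Targets of the tumour suppressor p53, which is activated by DNA damage, were, of the 24 lists that are not markers of other cells, the one with most genes higher after irradiation. Of 18 listed targets at the floor, 11 were higher and 0 lower in IR against control, with a median log2 ratio of 0.97. In IR_HSO against control 14 were higher and 0 lower (1.21), and in IR_HSO against IR 0 were higher and 0 lower (0.22). The shares of higher genes over all genes were 8.28%, 10.8% and 3.45%.

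To show what these genes carry at their starts, the 250 bases before each annotated start in the RefSeq promoter table of GRCm38.p6 were searched for the 10-base unit of the p53 consensus, a single copy of a unit that the full element holds as a pair. Its pattern is its own reverse complement, so 1 search covers both strands. A match was found before 2216 of 27025 genes (8.20%), 9 of 23 listed targets in the table (39.1%), and 7 of 10 in the table among the 11 that were higher in IR (70.0%). The list holds genes known as p53 targets, so these shares describe the list and test nothing. Stretches from 5 of the 7 genes are printed with the matches in capitals, 5′ to 3′ on the strand of the gene; the first match began 73, 201, 185, 121 and 10 bases before the start, in the order shown.
Cdkn1a promoter, chr17:29090886-29090957, plus strand: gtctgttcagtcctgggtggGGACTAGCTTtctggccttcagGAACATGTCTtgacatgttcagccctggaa
Bax promoter, chr7:45467070-45467119, minus strand: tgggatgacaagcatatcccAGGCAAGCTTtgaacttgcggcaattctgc
Ccng1 promoter, chr11:40755442-40755491, minus strand: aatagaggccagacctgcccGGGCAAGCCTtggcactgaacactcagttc
Aen promoter, chr7:78895917-78895966, plus strand: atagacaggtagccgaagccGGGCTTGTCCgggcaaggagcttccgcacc
Ei24 promoter, chr9:36797335-36797364, minus strand: ccagctgccccgtgcggcccGGGCATGCCC

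Cdkn1a, whose stretch holds 2 matches and which encodes the cell cycle inhibitor p21, stood at 5.71 CPM in control, 199 CPM in IR and 226 CPM in IR_HSO, from 5, 781 and 712 UMIs. It was 34.9-fold (95% interval 14.9 to 108) higher in IR and 39.6-fold (95% interval 16.9 to 122) higher in IR_HSO than in control. Phlda3, which encodes an inhibitor of AKT signalling, had 0, 393 and 306 UMIs, so IR and IR_HSO were at least 29.3-fold and 28.3-fold higher than the limit of 3 UMIs. Psrc1 had 0, 94 and 105 UMIs and was at least 7.004-fold higher in IR. These 3 genes were at or near 0 in control and plainly detected in both irradiated libraries.

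Bax, which encodes the pore-forming protein of mitochondrial apoptosis, stood at 127 CPM in control, 468 CPM in IR and 451 CPM in IR_HSO, 3.69-fold (95% interval 3.04 to 4.51) higher in IR than in control. Ccng1, which encodes cyclin G1, stood at 44.5 CPM in control, 166 CPM in IR and 185 CPM in IR_HSO, and Aen, a nuclease gene of apoptosis, at 22.8 CPM in control, 59.7 CPM in IR and 65.4 CPM in IR_HSO. Ei24 stood at 31.98, 81.4 and 110.5 CPM, Polk, a DNA polymerase gene of lesion bypass, at 23.98, 53.4 and 66.97 CPM, and Rps27l at 142, 274 and 243 CPM. Each of these genes had control as its lowest library. Other targets differed less: Mdm2, the ubiquitin ligase that degrades p53, stood at 81.1, 108 and 123 CPM, Bbc3, which encodes the apoptosis inducer PUMA, at 51.4, 66.6 and 67.9 CPM, and Btg2 at 515, 404 and 354 CPM. Sesn1 and Apaf1, with 65.1, 56.9 and 80.9 CPM and 44.5, 41.4 and 58.4 CPM, had the largest ratios of IR_HSO to IR on the list, 1.42-fold (95% interval 1.18 to 1.71) and 1.41-fold (95% interval 1.14 to 1.76), and both were under the 1.5-fold limit.

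At equal depth Cdkn1a was detected in 0.467% of members in control, 15.9% in IR and 19.97% in IR_HSO. In T gate cells the shares were 0.132%, 18.5% and 12.2%, and in B gate cells 0.372%, 7.96% and 3.51%. A UMI of Phlda3 was found in 0 of 214 control members, which allows a share of cells with a UMI at this depth of up to 1.40%, and in 10.0% and 10.7% of IR and IR_HSO members. Bax was detected in 10.7%, 33.9% and 37.5%. The median log2 ratio of the p53 list in T gate cells was 1.64, 0.05 and 1.61 in the 3 comparisons and in NK gate cells under the Gzma limit 1.20, −0.12 and 1.11, so higher p53 target levels were seen in those gates as well.

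**Figure D4:**
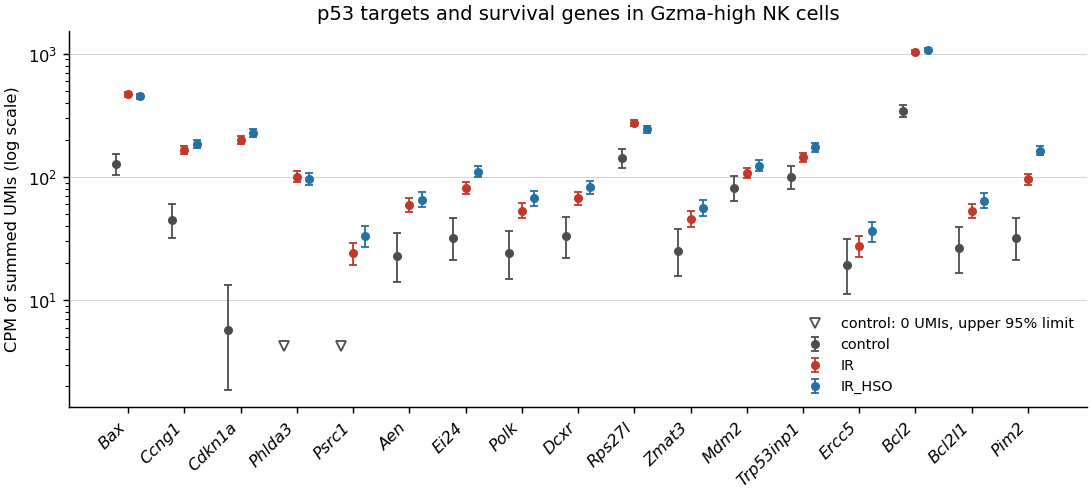
Levels of 14 p53 targets and of Bcl2, Bcl2l1 and Pim2 in Gzma-high NK cells of each library in CPM on a log axis, with 95% Poisson intervals; open triangles mark the upper limit where control had 0 UMIs. The 14 targets are those counted as higher in IR_HSO than in control, of 18 at the floor. Btg2, Bbc3, Sesn1 and Apaf1 were not and are not drawn. Cdkn1a and Phlda3 show the widest gap between control and the irradiated libraries. Pim2 is the one gene shown that differs by over 1.5-fold between IR and IR_HSO.

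Some survival genes were higher in the irradiated libraries, as was the apoptosis gene Bax. Of 10 at the floor, 4 were higher (Birc5, Bcl2, Pim2 and Bcl2l1) and 0 lower in IR against control, with a median log2 ratio of 0.30. In IR_HSO against control 6 of 11 were higher and 0 lower (0.91). Over all genes 8.28% and 10.8% were higher in these comparisons. Birc5 is on the proliferation list too. Bcl2, the founding anti-apoptotic gene, stood at 344 CPM in control, 1038 CPM in IR and 1069 CPM in IR_HSO, 3.02-fold (95% interval 2.69 to 3.41) higher in IR than in control. At equal depth it was detected in 27.6%, 60.1% and 61.1% of members and in 18.7%, 63.3% and 62.5% of T gate cells. Pim2, a survival kinase gene, stood at 31.98 CPM in control, 95.7 CPM in IR and 163 CPM in IR_HSO, 2.99-fold (95% interval 2.04 to 4.57) higher in IR than in control and 1.71-fold (95% interval 1.49 to 1.96) higher in IR_HSO than in IR. Birc3, an inhibitor of cell death in TNF receptor signalling, was higher in IR_HSO alone, at 37.7 CPM in control, 40.3 CPM in IR and 74.9 CPM in IR_HSO. Mcl1, on which NK cells depend for survival, stood at 304 CPM in control, 309 CPM in IR and 233 CPM in IR_HSO, within 1.5-fold throughout. With the limit of 30 Gzma UMIs the median of the survival list in IR against control was 0.056, and Bcl2 stood at 324, 954 and 1040 CPM. Of 12 apoptosis effectors at the floor, of 17 listed, 1 was higher and 0 lower in IR against control (Bax, also a p53 target), with a median of 0.13. Of 13 DNA damage sensing and repair genes at the floor, of 23 listed, 0 were higher and 1 lower, beside 6.87% of all genes lower.

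Proliferation genes were higher in IR at low levels. Of 12 at the floor, 7 were higher and 0 lower in IR against control (median log2 ratio 0.77), and 0 were higher and 3 lower in IR_HSO against IR (−0.40). In IR_HSO against control 5 were higher and 0 lower (0.32, a median that turned negative in 3 of 17 alternative settings). Over all genes 8.28% and 10.8% were higher in IR and IR_HSO than in control, and 4.71% were lower in IR_HSO than in IR. Mki67, the gene of the Ki-67 antigen of cycling cells, stood at 33.1 CPM in control, 79.9 CPM in IR and 70.5 CPM in IR_HSO, and Top2a, the topoisomerase gene of dividing cells, at 25.1 CPM in control, 89.9 CPM in IR and 51.7 CPM in IR_HSO. Top2a was 3.58-fold (95% interval 2.33 to 5.78) higher in IR than in control and 1.74-fold (95% interval 1.44 to 2.104) lower in IR_HSO than in IR. Few cells carried these transcripts: at equal depth 1 of 214 control members, 22 of 1146 IR members (1.92%) and 8 of 766 IR_HSO members (1.04%) had at least 2 UMIs of 12 mitosis genes, against 0.573%, 3.27% and 1.23% of T gate cells.

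Some interferon response genes were higher in the irradiated libraries, from low levels. Of 11 at the floor, 4 were higher (Ifi27l2a, Mx1, Rtp4 and Bst2) and 0 lower in IR against control (median log2 ratio 0.55), and 8 of 14 were higher and 0 lower in IR_HSO against control (0.66). Between IR_HSO and IR, 2 of 14 were higher (Ifi204 and Ifit2) and 0 lower. Over all genes 8.28%, 10.8% and 3.45% were higher in these comparisons, in the order given. Mx1, an antiviral GTPase gene, stood at 9.14 CPM in control, 45.7 CPM in IR and 46.7 CPM in IR_HSO, 5.002-fold (95% interval 2.48 to 11.8) higher in IR than in control, and Ifi27l2a at 6.85 CPM in control, 49.8 CPM in IR and 39.04 CPM in IR_HSO. Among 13 MHC class I genes, 2 were higher in IR than in control, beside 8.28% of all genes, and 0 were lower. The 2 were the antigen transporter gene Tap1, at 74.2, 131 and 147 CPM, and the class I transactivator gene Nlrc5, at 46.8, 74.8 and 95.5 CPM.

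Some immediate-early genes, whose transcripts also follow the handling of tissue, were lower in the irradiated libraries. Of 16 at the floor, 1 was higher (Hspa1a) and 5 lower (Fosb, Fos, Nr4a2, Jun and Klf6) in IR against control (median log2 ratio −0.25), and 1 was higher (Egr1) and 5 lower (Hspa1a, Hspa1b, Jun, Fos and Fosb) in IR_HSO against IR (−0.26). In IR_HSO against control 2 of 15 were higher (Dusp1 and Egr1) and 7 lower (−0.37). Among all genes at the floor, 8.28%, 3.45% and 10.8% were higher and 6.87%, 4.71% and 12.8% lower in these comparisons, in the order given. Fos and Fosb, AP-1 subunit genes, stood at 149.6 CPM in control, 73.01 CPM in IR and 40.3 CPM in IR_HSO and at 174 CPM in control, 57.95 CPM in IR and 35.2 CPM in IR_HSO. Jun, their partner, stood at 553 CPM in control, 358 CPM in IR and 184 CPM in IR_HSO, and was 1.94-fold (95% interval 1.76 to 2.15) lower in IR_HSO than in IR. Hspa1b, an inducible HSP70 gene, stood at 71.9 CPM in control, 103 CPM in IR and 30.5 CPM in IR_HSO, 3.37-fold (95% interval 2.69 to 4.25) lower in IR_HSO than in IR.

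Besides Hspa1b, 4 other chaperone or co-chaperone genes were among the 12 genes with the lowest ratio of IR_HSO to IR of all with at least 50 CPM. Hsph1, a co-chaperone gene of HSP70, stood at 124 CPM in control, 165 CPM in IR and 38.4 CPM in IR_HSO, 4.29-fold (95% interval 3.53 to 5.25) lower in IR_HSO than in IR, and at 165, 146 and 38.7 CPM in T gate cells. Hsp90aa1, the inducible HSP90 gene, stood at 651 CPM in control, 713 CPM in IR and 243 CPM in IR_HSO, and at 579, 679.8 and 301 CPM in T gate cells. Dnaja1 and Fkbp4, co-chaperone genes, stood at 433, 413 and 149.8 CPM and 118, 95.5 and 33.01 CPM, and at 454, 380.3 and 215 CPM and 129, 100.1 and 49.4 CPM in T gate cells. The low chaperone levels of IR_HSO were thus present in T cells of the same library too.

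The listed genes of oxidative phosphorylation and glycolysis at the floor differed by less than 1.5-fold in all 3 comparisons. Of 24 oxidative phosphorylation genes, 0 were higher and 0 lower in each, with median log2 ratios of 0.05, −0.13 and −0.05, and of 14 glycolysis genes at the floor 0 were higher and 0 lower in each, with medians of 0.13, −0.17 and −0.05, the last of both lists turning positive under another scaling. Since HSO is an oil, lipid genes are given as well. Of 7 fatty acid oxidation genes at the floor, 0 were higher in any comparison, and Acadm was lower in IR against control, Ech1 in IR_HSO against IR, and both in IR_HSO against control. Of 10 fatty acid and sterol synthesis genes at the floor, 0 differed by 1.5-fold between IR_HSO and IR. Srebf1 and Fasn, the genes of a lipogenic regulator and of fatty acid synthase, were the 2 higher in IR_HSO than in control, at 11.4, 19.9 and 26.03 CPM and 28.6, 38.5 and 50.2 CPM. Srebf1 thus lay below the 20 CPM floor in control and IR. Among all genes at the floor, 8.28%, 3.45% and 10.8% were higher and 6.87%, 4.71% and 12.8% lower in the 3 comparisons.

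**Figure D5:**
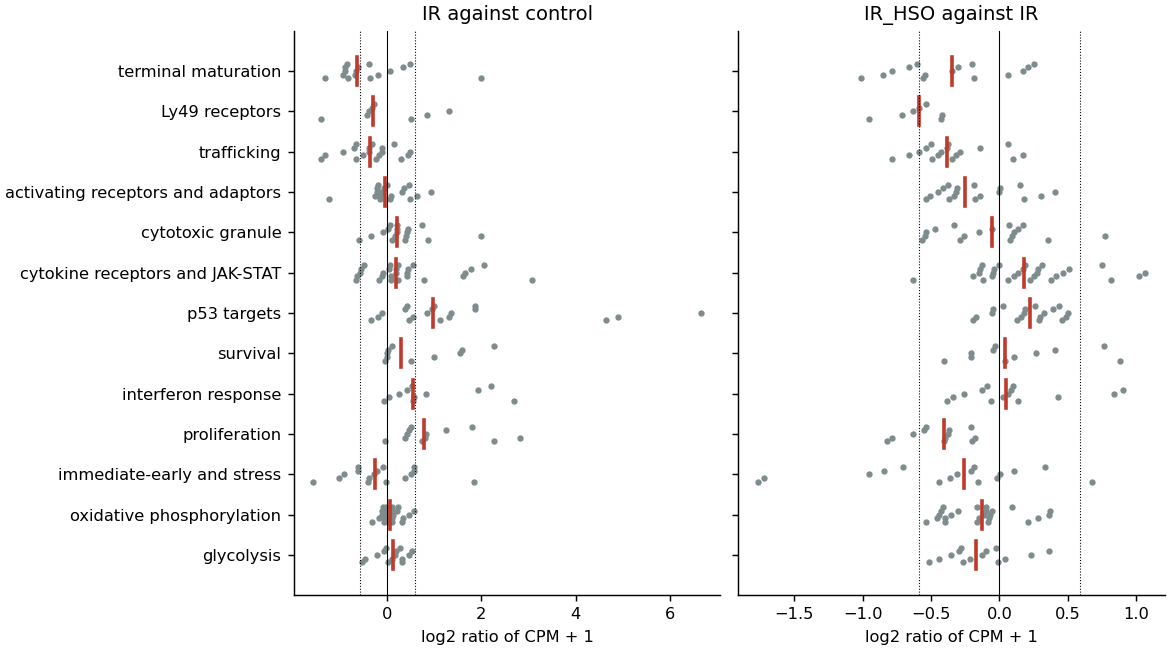
Log2 ratios of the genes at the 20 CPM floor in 13 lists for IR against control and for IR_HSO against IR, with 1 dot per gene, a red bar at the median and dotted lines at 1.5-fold. The p53 list lies highest in IR against control, with a median of 0.97, and terminal maturation lowest, at −0.64, while in IR_HSO against IR the Ly49 list lies lowest, at −0.59.

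The genes with the largest ratios among all with at least 50 CPM were mostly known from other cell types. Of the 12 with the highest ratio of IR to control, 7 were listed pancreatic acinar genes such as Ctrb1, a digestive protease gene, at 0 CPM in control, 393 CPM in IR and 460.2 CPM in IR_HSO, and at 0, 952 and 327 CPM in T gate and 0, 124 and 106 CPM in B gate cells. B gate levels of the irradiated libraries are lowered by the immunoglobulin UMIs there, 54.1% in IR and 43.1% in IR_HSO. All 14 acinar genes at the floor were higher in IR than in control. The lowest ratios belonged to haemoglobin genes, and to the MHC class II genes H2-Ab1, H2-Aa and H2-Eb1 with Cd74, which B cells express. Listed plasma cell genes, mostly immunoglobulins, summed to 508, 2494 and 2339 CPM in members, and Igkc was detected at equal depth in 26.6%, 71.8% and 69.97% of members and in 26.7%, 66.6% and 72.1% of T gate cells.

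Serpine2, which encodes a protease inhibitor, was among the 12 highest and is no acinar gene. It stood at 3.43 CPM in control, 248 CPM in IR and 237 CPM in IR_HSO, from 3, 973 and 746 UMIs, a 72.5-fold (95% interval 24.7 to 352) ratio of IR to control, against 0.977, 46.3 and 36.4 CPM in T gate and 1.21, 11.9 and 18.3 CPM in B gate cells. At equal depth it was detected in 0.935%, 19.5% and 20.4% of members and 0.0441%, 3.59% and 3.01% of T gate cells, and in 15.5% of IR and 16.4% of IR_HSO NK gate cells under the Gzma limit, so it was not limited to Gzma-high cells. Among the 12 lowest in IR_HSO against control, As3mt, an arsenic methyltransferase gene, stood at 154 CPM in control, 62.5 CPM in IR and 28.9 CPM in IR_HSO, against 3.99, 6.09 and 4.96 CPM in T gate cells, and Dnah8, a dynein chain gene, at 71.9 CPM in control, 26.04 CPM in IR and 14.3 CPM in IR_HSO. Of the 12 genes with the highest ratio of IR_HSO to IR, Rn18s-rs5 and Mir6236 stood at 32172, 15400.4 and 53113 CPM and 1272, 356 and 1960.0 CPM, and in T gate cells at 30481, 11037 and 48278 CPM and 928, 232 and 1721 CPM.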

How the data were processed

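UMI counts per gene and barcode, deposited by the authors as 1 filtered matrix per library, came, per the file headers, from Cell Ranger 7.0.1, run on GRCm39, per the submitters' processing notes. Counts were read with Python 3.11.15, numpy 2.4.6, scipy 1.17.1 and pandas 2.3.3, and figures were drawn with matplotlib 3.10.9. The 56980 features were summed to 56832 gene names. Cells with at least 500 UMIs, at least 200 genes and under 10% mitochondrial UMIs were kept. The T gate needed at least 2 UMIs of the Cd3 genes, and the B gate at least 2 of the Cd79 genes.

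Member UMIs were summed per library and scaled to CPM, with exact Poisson intervals for levels and exact conditional intervals for ratios. Log2 ratios had 1 CPM added. With 1 library per group no test was made. For shares of cells, each cell was drawn down to 1000 UMIs (seed 1), with Clopper-Pearson intervals. No doublet caller was run. The limit of 0 Cd3 and Cd79 UMIs removes doublets with T and B cells that carry those transcripts, and an alternative dropped the 5% of members with most UMIs. The script was tested on simulated counts.

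Members and the 34 gene lists were chosen with earlier results of these data known. Any list member could be named, at most 4 per list and comparison with a ratio (those with the largest at the 20 CPM floor), and outside the lists the 12 highest and 12 lowest ratios among genes with at least 50 CPM. Alternatives were 17 settings of the gate, depth, scaling, floor, pseudocount and fold. Promoters came from RefSeq (GRCm38.p6), a build other than that of the counts, and were matched by symbol, with Zmat3 not matched. Some listed genes are not reported here by name.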

Additional observations from a re-analysis of the deposited data

Results flagged for a closer look

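Among lists with at least 5 genes at the floor in both, the median log2 ratio of Gzma-high NK cells lay on the other side of 0 from that of T gate cells, with both medians at least 0.2 from 0, in 4 cases, and the difference was not tested. Receptors and effectors of NK identity had a median of −0.22 in Gzma-high NK cells and of 0.87 in the T gate in IR against control, and of −0.68 and 0.53 in IR_HSO against control. Inhibitory receptors had medians of −0.51 and 2.01 in IR_HSO against control, where 5 genes reached the floor in Gzma-high NK cells and 6 in the T gate. These were largely other genes. In the T gate Ctla4, Klrc1, Pdcd1 and Lag3 were higher and 0 were lower. In Gzma-high NK cells Lilrb4a was higher and Klrg1 and Klrd1 were lower. In the other cases too, the genes at the floor were not all the same. Immediate-early and stress genes had medians of −0.25 and 0.25 in IR against control. At least 1 Gzma UMI was found in 5.0%, 46.7% and 27.3% of T gate cells in control, IR and IR_HSO, with up to 29, 301 and 72 UMIs in a cell, and whether it came from free RNA, doublets or the T cells themselves was not tested.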

How the results depend on the processing

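No paired analysis was possible because each group has 1 library. Over 17 alternative settings, 3 of them (Gzma at least 10 or 30 UMIs, and leaving out cells with 5 or more haemoglobin UMIs) chosen after seeing the data, the medians of the maturation, Ly49, trafficking, p53, immediate-early and cytokine receptor lists kept their sign in all 3 comparisons. For the other lists followed through all settings, the medians that changed sign in some setting were those of cytotoxic granule genes in IR_HSO against IR (lowest −0.13, highest 0.07) and against control (−0.13 to 0.31), of proliferation in IR_HSO against control (−0.13 to 0.69), and of interferon response (−0.08 to 0.32) and survival (−0.01 to 0.16) in IR_HSO against IR. Under the 2 other scalings alone, medians also changed sign for activating receptors in IR against control, for DNA damage, antioxidant and inhibitory receptor genes in IR_HSO against IR, and for DNA damage, cytokine, fatty acid oxidation, glycolysis, oxidative phosphorylation, transcription factor and T cell genes in IR_HSO against control. Counts of genes moved with the floor and the fold by construction and are given here as higher then lower, for IR against control, IR_HSO against IR and IR_HSO against control. With a floor of 10 CPM they were 932 and 788, 420 and 466, and 1213 higher. With a floor of 50 CPM they were 205 and 187, 107 and 147, and 319 and 466. Without a floor they were 4121 and 2573, 2165 and 1975, and 4396 and 3117, and the Ly49 median in IR_HSO against control was −0.43. With a 2-fold limit they were 196 and 95, 53 and 65, and 290 and 229. With cells thinned to 2000 UMIs, 703 genes were lower in IR against control and 372 higher in IR_HSO against IR, and the medians of interferon response and immediate-early genes in IR_HSO against IR were 0.32 and −0.54. With highly abundant and free RNA genes left out of the totals, 478 genes were higher in IR_HSO against IR and 1255 against control, and the maturation median in IR_HSO against IR was −0.21. With Gzma at least 10 UMIs the share ratio of IR to control was 3.41. With at least 30 it was 3.08, that of IR_HSO to control was 2.48, 698 genes were lower in IR against control and 347 higher in IR_HSO against IR, and the medians of Ly49 and survival in IR against control were −0.19 and 0.056. The cause of the changes under thinning, other totals and Gzma limits was not tested. The 217 control members limit the precision of genes near the floor.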

Other observations

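Some listed groups had few members with a difference of 1.5-fold. Of 13 antioxidant genes at the floor, 2 were lower in IR than in control: Gclm, a subunit gene of glutathione synthesis, with 22.8 CPM in control, 14.04 CPM in IR and 13.6 CPM in IR_HSO, and Gpx4, which reduces lipid peroxides, with 233 CPM in control, 151 CPM in IR and 199 CPM in IR_HSO. Over all genes 6.87% were lower in IR than in control. Between IR_HSO and IR, 0 of 12 antioxidant genes differed by 1.5-fold. Of the immature and innate lymphoid genes, Kit, the stem cell factor receptor gene, stood at 19.4 CPM in control, 20.7 CPM in IR and 32.7 CPM in IR_HSO, and Emb at 162 CPM in control, 200.4 CPM in IR and 299.6 CPM in IR_HSO. Tigit, an inhibitory receptor gene, stood at 2.28 CPM in control, 5.36 CPM in IR and 12.4 CPM in IR_HSO, from 2, 21 and 39 UMIs. S100a8, a neutrophil gene, stood at 3.43 CPM in control, 2.298 CPM in IR and 23.5 CPM in IR_HSO, and listed granulocyte genes summed to 12.6, 7.66 and 53.3 CPM, with Camp, Ltf, Mpo, Elane and Mcpt8 at 0 in all 3 libraries.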
